A study of Homo sapiens with 9 samples.

Results

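Focal adhesion core components are the adaptor and linker proteins that join integrins to the actin cytoskeleton. The group described here was chosen by name and holds 10 genes, VCL, TLN1, ZYX, PXN, FERMT2, ILK, PARVA, LIMS1, TGFB1I1 and BCAR1. All 10 were found by their symbols among the 58174 genes of the expression tables, and all 10 passed the filter on low values in every comparison. Their mRNAs were measured in ES-2 cells, an established ovarian cancer-derived cell line, by total RNA-seq after depletion of ribosomal RNA. The cells were transfected with control siRNAs (siC), an siRNA pool directed at IGF2BP1 (siIGF2BP1) or an siRNA pool directed at SRF (siSRF) and harvested 72 h later, with 3 libraries per condition. The comparisons ask how mRNA abundance depends on the mRNA-binding protein IGF2BP1 and on the transcription factor SRF, and how the knockdowns differ from each other.

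Focal adhesions form where integrins hold the extracellular matrix. Talin and kindlin bind the integrin tails, vinculin reinforces the link from talin to actin, and the complex of integrin-linked kinase, PINCH and parvin (the IPP complex) provides a further link. Paxillin and its relatives, p130Cas and zyxin serve as platforms for signalling and actin assembly, and SRF is known as a regulator of many genes of the actin cytoskeleton.

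Abundance is given as FPKM, fragments normalized for gene length and for sequencing depth. The length is a single deposited value per gene, for TGFB1I1 5403 bases within a gene of 6376 bases. Whether it equals the length of the mRNA in these cells was not tested. Levels, shares, family sums and ratios between different genes rest on it. The reads counted on genes were 6421764, 6739061 and 7253729 in the siC libraries, 7567730, 7033869 and 8419467 in siIGF2BP1, and 7377934, 9416175 and 7542197 in siSRF. At this depth the member with the fewest reads, TGFB1I1, had between 87 and 125 reads per library, whereas TLN1 had between 3526 and 5270. IGF2BP1 was at 12.8, 13.5 and 12.1 FPKM under siC, 4.18, 4.14 and 4.02 under siIGF2BP1, and 13.7, 14.6 and 14.4 under siSRF. SRF was at 13.6, 14.1 and 16.0 FPKM under siC, 5.80, 5.42 and 6.80 under siIGF2BP1, and 1.63, 1.36 and 1.42 under siSRF. Each target was thus lowest in the libraries labelled with its own siRNA pool, and SRF was also low in siIGF2BP1, at 41.3% of siC.

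The cells held markers of a mesenchymal phenotype, with means under siC, siIGF2BP1 and siSRF of 1055, 883 and 853 FPKM for VIM and 25.4, 40.1 and 29.8 FPKM for CDH2, while ZEB1 lay between 9.74 and 12.8 FPKM in the 9 libraries. The other mesenchymal markers averaged, in the same order, 74.5, 241 and 46.8 FPKM for SPARC, 8.25, 4.70 and 3.15 FPKM for FN1, and 10.5, 10.4 and 6.57 FPKM for TWIST1. Of the 8 epithelial and Muellerian markers, KRT7, KRT18 and KRT8 were above 1 FPKM, whereas EPCAM and CDH1 were near 0. Under siC, siIGF2BP1 and siSRF, KRT7 averaged 101, 152 and 127 FPKM, KRT18 43.4, 41.8 and 81.7 FPKM, and the sum of the 8 markers 154, 207 and 219 FPKM. The leukocyte markers PTPRC and CD3E were at 0 in all libraries, and the summed level of the 5 leukocyte markers was at most 0.945 FPKM. The 5 smooth muscle markers summed to at most 0.788 FPKM. Of the fibroblast markers, DCN and COL1A2 were near 0 and LUM was at 0, but COL1A1 averaged 3.50 FPKM under siC, 20.9 under siIGF2BP1 and 4.58 under siSRF, and PDGFRA averaged 2.75, 5.41 and 3.80 FPKM in the same order. Of the endothelial markers CDH5 was at 9.38, 15.2 and 7.93 FPKM in the same order, and VWF was near 0. Whether these shifts have a part in the values of the adhesion genes was not tested. In bulk RNA, a lower level in every cell and a loss of the mRNA in some of the cells cannot be told apart.

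In siC, the levels of the 10 mRNAs spanned 22.1-fold. VCL was highest at 67.1 FPKM, followed by TLN1 at 56.5 FPKM, ILK at 42.5 FPKM, ZYX at 38.5 FPKM and PXN at 26.2 FPKM. BCAR1 at 13.1 FPKM and LIMS1 at 12.4 FPKM formed the next step, then PARVA at 7.28 FPKM and FERMT2 at 7.03 FPKM, and TGFB1I1 was lowest at 3.04 FPKM. Neighbours in this order whose siC libraries overlapped were ILK and ZYX, BCAR1 and LIMS1, and PARVA and FERMT2. In siIGF2BP1 LIMS1 took the sixth place, and ZYX stood above ILK and PARVA above BCAR1, although libraries of each of these pairs overlapped. In siSRF, TLN1 took the first place and VCL the fifth, its libraries overlapping with those of PXN, and FERMT2 stood above PARVA without overlap. The spread between libraries was small, with a median coefficient of variation of 4.75% in siC, 4.06% in siIGF2BP1 and 3.97% in siSRF.

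**Figure D1:**
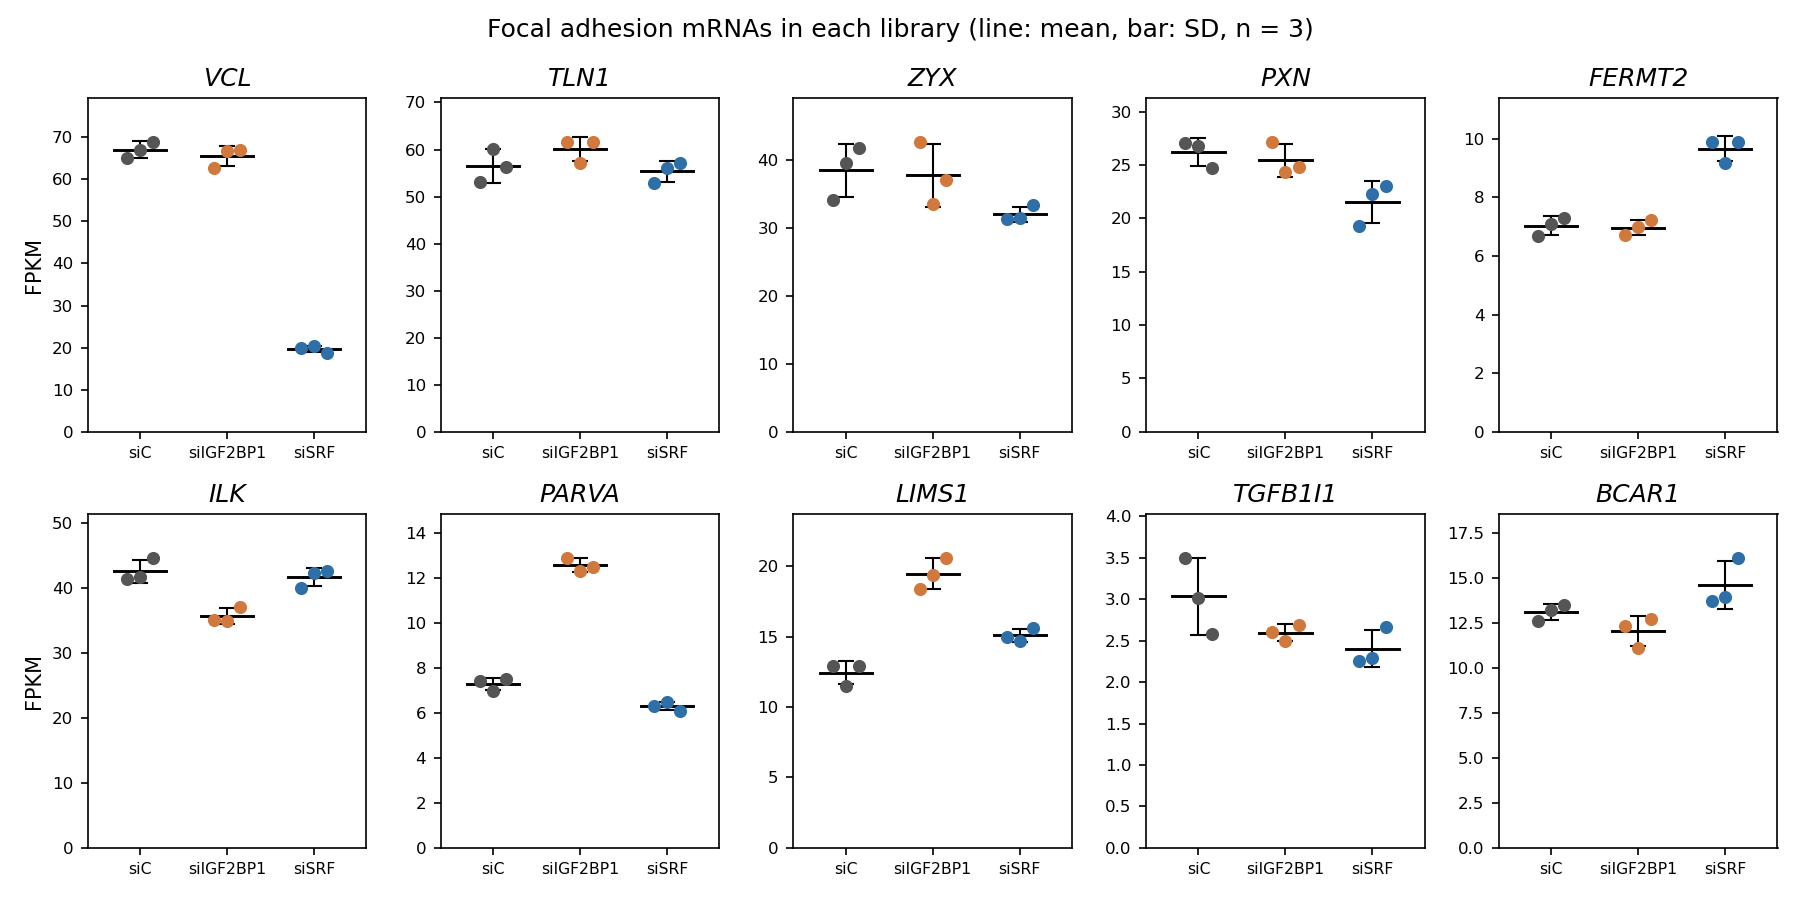
FPKM of the 10 mRNAs in each library (points), by condition on the horizontal axis, with the mean as a line and the SD as a bar (n = 3 each); every vertical axis starts at 0. VCL is low in the 3 siSRF libraries only, PARVA and LIMS1 are highest in the 3 siIGF2BP1 libraries, and FERMT2 is highest in siSRF.

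Upon IGF2BP1 depletion, PARVA and LIMS1, which encode the parvin and PINCH partners of integrin-linked kinase, rose. ILK itself was lower in all siIGF2BP1 libraries than in siC but missed the threshold. Conditions were compared by limma-trend on the scale of log2(FPKM + 0.1) across all genes that averaged 0.1 FPKM or more in the 6 libraries, and a gene was called at an adjusted p of at most 0.01. A fold change on this scale understates the change of low genes. The 2 of 10 members called stand beside 7.12% of all 22292 genes tested and 13.6% of the 10419 protein-coding genes averaging 1 FPKM or more. The libraries of siIGF2BP1 and siC did not overlap for 3 of 10 members, ILK, PARVA and LIMS1, against 53.8% of the same protein-coding genes. The median log2 fold change of the members was -0.03, and it was -0.023 over those protein-coding genes.

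Upon SRF depletion, VCL fell and FERMT2 rose. The 2 of 10 members called were near the background, since 12.2% of all 21857 genes tested and 23.5% of the 10284 protein-coding genes of at least 1 FPKM were called. Libraries did not overlap for 7 of 10 members, against 62.3% of these protein-coding genes. The median log2 fold change was -0.12 over the members and 0.042 over the protein-coding genes. Both knockdowns were compared with the same siC libraries, so their values are given side by side below and the difference between them was tested directly.

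In the direct comparison of siSRF with siIGF2BP1, 5 of 10 members were called. VCL, PARVA and LIMS1 were lower in siSRF, and FERMT2 and ILK were higher. Of all 22311 genes tested 20.0% were called, and of the 10371 protein-coding genes of at least 1 FPKM 37.4%. Libraries of the knockdowns did not overlap for 9 of 10 members, TGFB1I1 being the exception, against 70.0% of the protein-coding genes. An exact permutation test over 3 libraries against 3 cannot give a p below 0.1 (two-sided), and it gave 0.1 wherever the libraries did not overlap. The labels do not say whether replicates came from separate cultures, so that the p-values measure only the spread between these libraries, which may be technical.

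**Figure D2:**
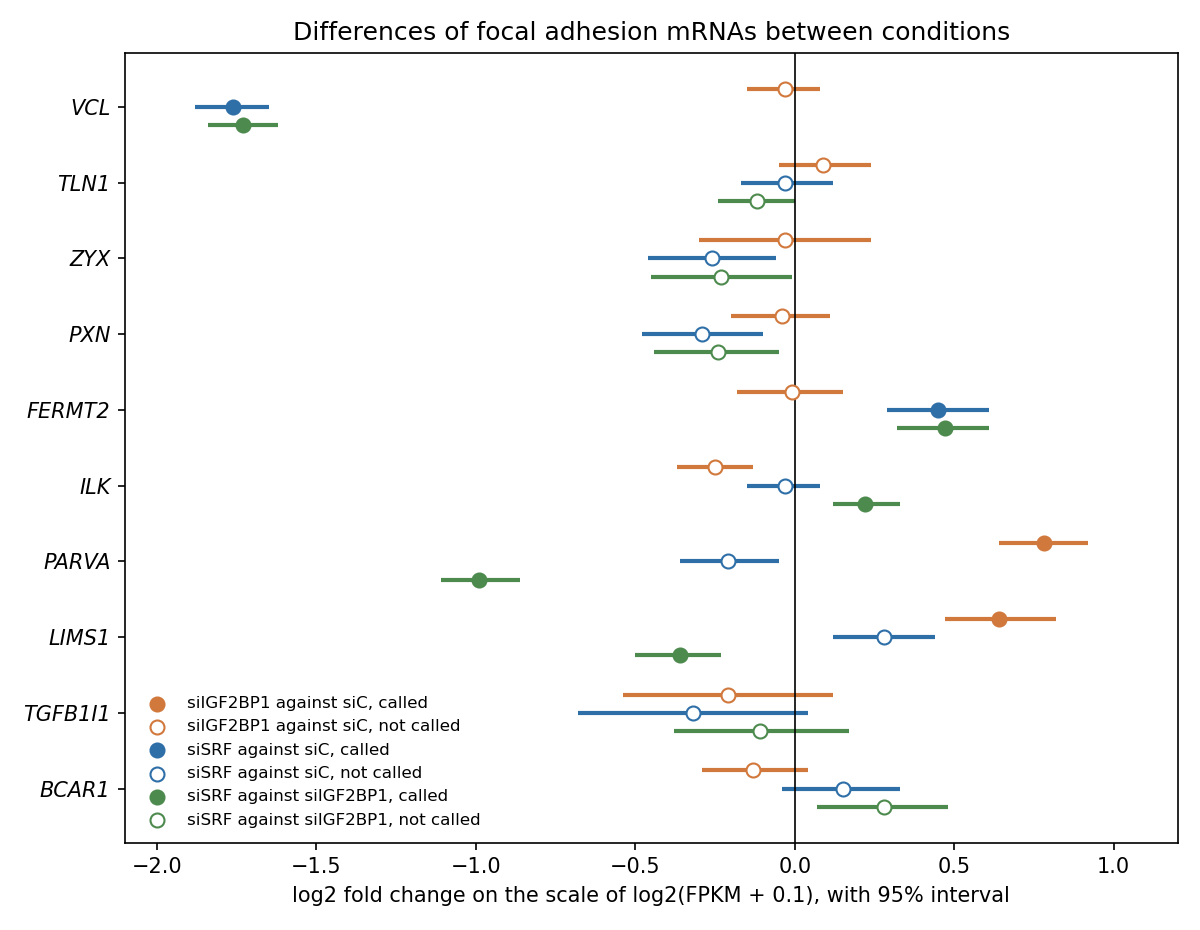
Log2 fold changes of the 10 mRNAs on the scale of log2(FPKM + 0.1), with 95% intervals, for siIGF2BP1 against siC, siSRF against siC and siSRF against siIGF2BP1; filled points were called by limma (adjusted p up to 0.01) and open points were not. VCL stands at -1.76 in siSRF and at -0.03 in siIGF2BP1, while PARVA stands at 0.78 in siIGF2BP1 and at -0.21, not called, in siSRF.

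TLN1 (ENSG00000137076, chr9:35696948-35732195 on the minus strand, GRCh38) encodes talin-1, which binds integrin tails and actin. Its levels were 53.0, 60.2 and 56.2 FPKM under siC, 61.5, 57.2 and 61.7 under siIGF2BP1, and 52.9, 56.1 and 57.2 under siSRF. The libraries of either knockdown overlapped with those of siC. The log2 fold change was 0.09 (limma adjusted p = 0.379, 95% interval from -0.05 to 0.24) in siIGF2BP1 and -0.03 (limma adjusted p = 0.803, 95% interval from -0.17 to 0.12) in siSRF. After correction for GC content and length the value in siSRF was 0.19 (limma adjusted p = 0.0116), with the sign turned and still not called.

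VCL (ENSG00000035403, chr10:73995193-74121363, plus strand) encodes vinculin, which is recruited to stretched talin and holds actin filaments. Its levels were 65.1, 67.1 and 69.0 FPKM under siC, 62.7, 66.7 and 67.1 under siIGF2BP1, and 19.9, 20.3 and 18.8 under siSRF. The siSRF libraries lay far below the others, which overlapped with each other. In siSRF the level was 29.3% of siC, which placed VCL at the 0.214 percentile of the log2 fold changes of protein-coding genes of at least 1 FPKM. In siIGF2BP1, where SRF was at 41.3% of siC, the log2 fold change of VCL was -0.03 (limma adjusted p = 0.667, 95% interval from -0.15 to 0.08). The direct comparison of the knockdowns gave a log2 fold change of -1.73 (limma adjusted p = 1.1e-05, standard error (SE) 0.0468) in siSRF against siIGF2BP1. This call and that of VCL in siSRF against siC held in every alternative run, including the omission of each library. The FPKM of VCL per FPKM of its partner TLN1, a ratio chosen after the values had been seen, was 1.23, 1.12 and 1.23 in siC, 1.02, 1.17 and 1.09 in siIGF2BP1, and 0.377, 0.362 and 0.329 in siSRF.

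FERMT2 (ENSG00000073712, chr14:52857268-52952435, minus strand) encodes kindlin-2, a co-activator of integrins. It was at 6.67, 7.11 and 7.31 FPKM under siC, 6.71, 6.98 and 7.23 under siIGF2BP1, and 9.91, 9.17 and 9.91 under siSRF. All siSRF libraries lay above all others. The log2 fold change was 0.45 (limma adjusted p = 0.00471, SE 0.0659) in siSRF against siC and 0.47 (limma adjusted p = 0.0018, SE 0.0603) in siSRF against siIGF2BP1. In siIGF2BP1 it was -0.01 (limma adjusted p = 0.943, 95% interval from -0.18 to 0.15). The call against siC was lost at the threshold of 0.01 with any of the 6 libraries left out, with limma adjusted p-values of 0.0166, 0.0161 and 0.0112 without siC replicates 1, 2 and 3 and 0.0245, 0.0155 and 0.0223 without siSRF replicates 1, 2 and 3. It was also lost after a correction of each library for GC content and gene length, where the log2 fold change was 0.30 (limma adjusted p = 0.0217). The GC content of its canonical transcript is 40.7%, while the median of expressed protein-coding genes is 47.4%. In the direct comparison, the call was lost without siSRF replicate 1, with a limma adjusted p of 0.0101.

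SRF binds a DNA element known as the CArG box, so the start sites of the members were searched for it. The table of RefSeq promoters used here (GRCh38.p14) gave 19 start sites for 9 of the 10 members, and PARVA was not analysed for this. In the 300 bases from 250 before to 50 after each start, an exact match was found only at the start of TGFB1I1 that lies farthest downstream, and 1.29% of all 35116 promoters in the table hold one. At a single mismatch a match was found in ZYX and in TGFB1I1, and 18.9% of all promoters hold a match with at most 1 mismatch. In windows of 2000 bases on either side, chosen after the promoters had been read, 5 of the 19 windows hold an exact match, as do 18.5% of all such windows. They belong to VCL, FERMT2 and TGFB1I1, whose 3 overlapping windows share a single box. The motif reads the same on both strands. The matches are printed with 10 bases on either side, on the strand of the gene, because VCL and FERMT2 are the members called in siSRF, with the box in capitals.
VCL, 251 bases before its start, chr10:73997851-73997880, exact, in an intron of VCL in the GENCODE annotation: cccaccatgcCCTTATAAGGagcgcccggc
FERMT2, 291 bases before its start, chr14:52951326-52951355, minus strand, exact, in an intron of FERMT2: tccttcatttCCATAAAAGGgcagcgctcc
TGFB1I1, 47 bases before its start farthest downstream, chr16:31473144-31473173, exact, in an untranslated exon of TGFB1I1: tggaggggagCCAAATTTGGcttgggtgaa
ZYX, 102 bases before its start, chr7:143381229-143381258, with 1 mismatch, outside annotated genes: ccgggccgctCCTTGTATGGtctgggcgcc
TGFB1I1, 69 bases before its start farthest upstream, chr16:31472069-31472098, with 1 mismatch, in an untranslated exon of TGFB1I1 and an exon of ENSG00000280132: gtcccggcttCCTTACATGGtcacggccgg
Of these 4 genes, VCL was lower and FERMT2 higher in siSRF, and ZYX and TGFB1I1 were not called. A match describes the sequence only, and binding of SRF was not measured in these libraries.

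ILK (ENSG00000166333, chr11:6603708-6610874, plus strand) encodes integrin-linked kinase, the centre of the IPP complex. Its levels were 41.4, 41.6 and 44.6 FPKM under siC, 35.0, 34.9 and 37.1 under siIGF2BP1, and 40.0, 42.3 and 42.5 under siSRF. The siIGF2BP1 libraries lay below all others, and the siC and siSRF libraries overlapped. The log2 fold change in siIGF2BP1 was -0.25 (limma adjusted p = 0.0188, 95% interval from -0.37 to -0.13), which missed the threshold of 0.01. With all 9 libraries in one fit the limma adjusted p was 0.00543, and with limma-voom on the recovered reads it was 0.00562. ILK was also called at a threshold of 0.05 but not in the other 9 alternatives of this kind. After correction for GC content and length the value was -0.18 (limma adjusted p = 0.0438). With each library left out, the limma adjusted p was between 0.0418 and 0.0661. In siSRF the log2 fold change was -0.03 (limma adjusted p = 0.694, 95% interval from -0.15 to 0.08). The difference of 0.22 between siSRF and siIGF2BP1 (limma adjusted p = 0.00938, SE 0.0428) was called by a narrow margin. It was lost with any of the 6 libraries left out, with limma adjusted p-values of 0.0334, 0.0313 and 0.0143 without siIGF2BP1 replicates 1, 2 and 3 and 0.0148, 0.0408 and 0.0344 without siSRF replicates 1, 2 and 3. The call was also lost in 4 of the 12 other alternatives, with a limma adjusted p of up to 0.0330. The exons of ILK overlap with those of TAF10 on the opposite strand over 2374 bases, and TAF10 was at 8.37, 7.46 and 9.92 FPKM on average in siC, siIGF2BP1 and siSRF. VCL likewise overlaps with AP3M1 on the opposite strand over 1109 bases, and AP3M1 was at 18.0, 17.6 and 25.2 FPKM in the same order. The library kit keeps the strand, but whether the counting used it is not given in the sources used here.

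PARVA (ENSG00000197702, chr11:12377563-12535356, plus strand) encodes alpha-parvin, the actin-binding partner of integrin-linked kinase. It was at 7.40, 6.96 and 7.49 FPKM under siC, 12.9, 12.3 and 12.5 under siIGF2BP1, and 6.32, 6.47 and 6.10 under siSRF. The 3 conditions did not overlap, with siIGF2BP1 highest and siSRF lowest. In siIGF2BP1 PARVA rose to 173% of siC, a log2 fold change of 0.78 (limma adjusted p = 0.000704, SE 0.0577), and it stayed between 0.75 and 0.80 and called with each library left out. In siSRF the log2 fold change was -0.21 (limma adjusted p = 0.0647, 95% interval from -0.36 to -0.05), which was not called. Between the knockdowns the log2 fold change was -0.99 (limma adjusted p = 6.2e-05, SE 0.0513), and PARVA in siSRF was at 50.1% of its level in siIGF2BP1.

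LIMS1 (ENSG00000169756, chr2:108533671-108687246, plus strand) encodes PINCH1, the LIM-domain partner of integrin-linked kinase. Its levels were 12.9, 11.5 and 12.9 FPKM under siC, 18.4, 19.4 and 20.6 under siIGF2BP1, and 15.0, 14.7 and 15.6 under siSRF. Here too the conditions did not overlap, with siIGF2BP1 highest but siSRF in the middle. In siIGF2BP1 LIMS1 rose to 157% of siC, a log2 fold change of 0.64 (limma adjusted p = 0.00283, SE 0.0725). The fold change stayed between 0.59 and 0.68 with each library left out, but the call was kept only without siC replicate 2. The limma adjusted p was 0.0113 and 0.0112 without siC replicates 1 and 3, and 0.0105, 0.0159 and 0.0168 without siIGF2BP1 replicates 1, 2 and 3. In siSRF the log2 fold change was 0.28 (limma adjusted p = 0.024, 95% interval from 0.12 to 0.44), which was not called. It was called by limma-voom (adjusted p = 0.00217) and at a threshold of 0.05. After correction for GC content and length it was 0.11 (limma adjusted p = 0.174), and the GC content of LIMS1, 39.8%, is the lowest among the members.

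Between the knockdowns the log2 fold change of LIMS1 was -0.36 (limma adjusted p = 0.00341, SE 0.0549). This call was kept without siIGF2BP1 replicate 1 and lost with any other library left out, with limma adjusted p-values of 0.0135 and 0.011 without siIGF2BP1 replicates 2 and 3, 0.016 and 0.0179 without siSRF replicates 1 and 2, and 0.01, just above the threshold before rounding, without siSRF replicate 3. Near-identical copies of LIMS1 could take up reads of the gene in the authors' counting. The copies LIMS3 and LIMS4 held at most 5 and 3 reads per library, and the paralog LIMS2 was at 0 in all 9 libraries.

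The mRNAs of the IPP complex were also compared as ratios within each library. These ratios were chosen after the values of the members had been seen. The FPKM of ILK per FPKM of PARVA was 5.60, 5.98 and 5.96 in siC, 2.72, 2.84 and 2.97 in siIGF2BP1, and 6.33, 6.54 and 6.97 in siSRF. In siIGF2BP1 it was 48.6% of siC, and no libraries of different conditions overlapped (exact p = 0.1 by permutation, two-sided, for every comparison). ILK per LIMS1 was 3.20, 3.63 and 3.46 in siC, 1.90, 1.80 and 1.80 in siIGF2BP1, and 2.67, 2.87 and 2.73 in siSRF. This ratio was lowest in siIGF2BP1 and in the middle in siSRF, again without overlap (exact p = 0.1 by permutation, two-sided). In siSRF none of ILK, PARVA and LIMS1 was called against siC. Over the alternatives other than leaving out a library, the log2 fold change in siSRF ran from -0.07 to 0.11 for ILK. For LIMS1 it ran from 0.11 to 0.28, so the step of ILK per LIMS1 between siC and siSRF depends on the processing. Ratios between genes are free of the scaling of libraries, but not of a bias that differs between genes.

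**Figure D3:**
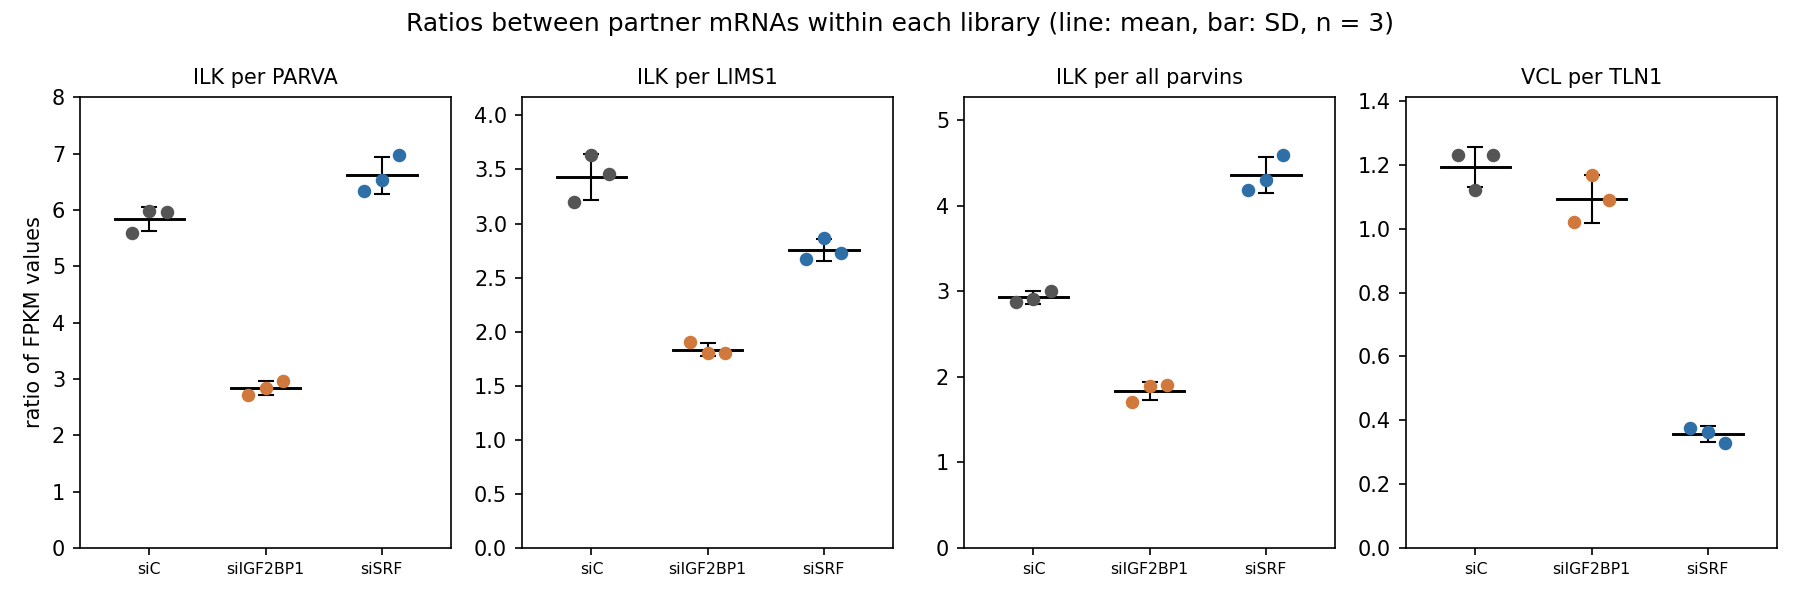
Ratios of FPKM values within each library (points) by condition, with the mean as a line and the SD as a bar (n = 3 each); every axis starts at 0. ILK per PARVA and ILK per LIMS1 are lowest in siIGF2BP1 (means of 2.84 and 1.83), ILK per summed parvins is highest in siSRF (4.35), and VCL per TLN1 is lowest in siSRF (0.356).

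PXN (ENSG00000089159, chr12:120210439-120265771, minus strand) encodes paxillin, a scaffold for focal adhesion kinase. Its levels were 27.1, 26.8 and 24.7 FPKM under siC, 27.2, 24.3 and 24.8 under siIGF2BP1, and 19.3, 22.3 and 23.0 under siSRF. The siSRF libraries lay below all others. The log2 fold change in siSRF was -0.29 (limma adjusted p = 0.0442, 95% interval from -0.48 to -0.10), which was not called, and in siIGF2BP1 it was -0.04 (95% interval -0.20 to 0.11). Limma-voom on the recovered reads called PXN in siSRF with an adjusted p of 0.00103. After correction for GC content and length it was at -0.05 (limma adjusted p = 0.677). The antisense gene PXN-AS1, which shares 1769 exon bases with PXN, was between 1.06 and 1.97 FPKM.

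TGFB1I1 (ENSG00000140682, chr16:31471585-31477960, plus strand) encodes Hic-5, a paxillin relative that also acts in the nucleus. It was at 3.50, 3.02 and 2.58 FPKM under siC, 2.61, 2.49 and 2.69 under siIGF2BP1, and 2.26, 2.29 and 2.66 under siSRF. The conditions overlapped, and the interval of the log2 fold change was the widest among the members in both comparisons with siC. It was -0.21 (limma adjusted p = 0.377, 95% interval from -0.54 to 0.12) in siIGF2BP1 and -0.32 (limma adjusted p = 0.185, 95% interval from -0.68 to 0.04) in siSRF. After correction for GC content and length the values were -0.07 and -0.06.

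BCAR1 (ENSG00000050820, chr16:75228181-75268053, minus strand) encodes p130Cas, a substrate of Src kinases that responds to stretch. It was at 12.6, 13.2 and 13.5 FPKM under siC, 12.3, 11.1 and 12.7 under siIGF2BP1, and 13.7, 13.9 and 16.1 under siSRF. The siSRF libraries lay just above the siC libraries, 1 of them by a wider margin. The log2 fold change was -0.13 (limma adjusted p = 0.276, 95% interval from -0.29 to 0.04) in siIGF2BP1 and 0.15 (limma adjusted p = 0.228, 95% interval from -0.04 to 0.33) in siSRF. After correction for GC content and length it was called in siSRF, at 0.43 (limma adjusted p = 0.00356). The GC content of its transcript, 65.5%, is the highest among the members. An overlapping gene on the same strand, ENSG00000280152, shares 788 exon bases with BCAR1 and was at 1.73, 1.60 and 3.47 FPKM on average in siC, siIGF2BP1 and siSRF, so that the assignment of reads between these genes is uncertain.

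ZYX (ENSG00000159840, chr7:143381295-143391111, plus strand) encodes zyxin, which marks mature adhesions and brings in actin assembly factors. Its levels were 34.1, 39.6 and 41.7 FPKM under siC, 42.7, 33.5 and 37.0 under siIGF2BP1, and 31.3, 31.4 and 33.3 under siSRF. The siC and siIGF2BP1 libraries were widely spread and overlapped, and the siSRF libraries lay just below the lowest of them. The log2 fold change in siSRF was -0.26 (limma adjusted p = 0.0665, 95% interval from -0.46 to -0.06), and it was -0.01 (limma adjusted p = 0.913) after correction for GC content and length. Limma-voom on the recovered reads called ZYX in siSRF with an adjusted p of 0.005. In siIGF2BP1 it was -0.03 (limma adjusted p = 0.898, 95% interval from -0.30 to 0.24).

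Summed over the 10 members, the level was 264, 277 and 280 FPKM under siC, 282, 269 and 283 under siIGF2BP1, and 211, 219 and 225 under siSRF. The siSRF libraries were below all others, at 79.8% of the siC mean. Without VCL the sum was 207 ± 6.88 FPKM under siC, 213 ± 9.20 under siIGF2BP1 and 199 ± 7.86 under siSRF (mean ± SD, n = 3 each), with overlapping libraries. VCL made up 24.5% of the sum in siC and 9.02% in siSRF.

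Several members have paralogs that may serve in their place, and summing the FPKM over a family shows how the member's own change compares with the family total. The paralogs FERMT1, FERMT3, LPXN, PARVG and TRIP6 were picked for mention after their values had been seen. For the parvins, PARVA gave 50.2% of the sum in siC and beta-parvin (PARVB) almost all of the rest, while PARVG was near 0. PARVB was at 7.02, 7.34 and 7.30 FPKM under siC, 7.65, 6.11 and 6.95 under siIGF2BP1, and 3.22, 3.36 and 3.17 under siSRF. It fell in siSRF (log2 fold change -1.13, limma adjusted p = 0.000399, SE 0.0702) and was at -0.07 (limma adjusted p = 0.674, 95% interval from -0.30 to 0.16) in siIGF2BP1.

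The parvin sum was 14.4, 14.3 and 14.8 FPKM under siC, 20.5, 18.4 and 19.5 under siIGF2BP1, and 9.59, 9.83 and 9.27 under siSRF. It was 134% of siC in siIGF2BP1 and 65.9% in siSRF, without overlap of any conditions (exact p = 0.1 by permutation, two-sided). In siIGF2BP1 the higher sum came from PARVA, and in siSRF the lower sum came mostly from PARVB. The share of PARVA in the sum was 64.6% in siIGF2BP1 and 65.8% in siSRF. The FPKM of ILK per summed FPKM of the parvins was 2.93 ± 0.0728 in siC, 1.83 ± 0.111 in siIGF2BP1 and 4.35 ± 0.211 in siSRF (SD, n = 3 each).

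Among the kindlins, FERMT2 gave 41.5% of the sum in siC and 54.7% in siSRF. Kindlin-1 (FERMT1), known mainly from epithelia, had FPKM values like those of FERMT2 in siC, at 7.29, 7.74 and 6.30 FPKM. In siSRF FERMT1 was at 5.78, 6.08 and 4.66 FPKM, a log2 fold change of -0.37 (limma adjusted p = 0.0957, 95% interval from -0.68 to -0.05) that was not called. The kindlin sum was 16.9, 18.2 and 15.9 FPKM under siC, 15.4, 15.2 and 14.7 under siIGF2BP1, and 18.2, 17.4 and 17.4 under siSRF. The siSRF and siC libraries overlapped although those of FERMT2 alone did not, and the siIGF2BP1 libraries lay below all others, at 88.8% of siC on average (exact p = 0.1 by permutation, two-sided). The largest part of this difference lay in FERMT3, at 2.96, 3.36 and 2.25 FPKM in siC and 1.91, 2.01 and 1.66 FPKM in siIGF2BP1, which was not called (log2 fold change -0.58, limma adjusted p = 0.0827).

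In the paxillin family, leupaxin (LPXN), which is known mainly from blood cells, had the highest FPKM and gave 64.6% of the sum in siC. This order rests on the gene length, 2467 bases for LPXN and 7460 bases for PXN. In reads LPXN was below PXN in siC, at 845, 936 and 937 against 1334, 1359 and 1335. LPXN was at 51.9, 55.8 and 52.5 FPKM under siC, 47.8, 48.7 and 48.5 under siIGF2BP1, and 61.2, 67.2 and 60.1 under siSRF. The conditions did not overlap, but neither difference from siC was called (limma adjusted p = 0.0767 in siIGF2BP1 and 0.0292 in siSRF). The difference between the knockdowns was called, at 0.38 (limma adjusted p = 0.00183, SE 0.049) in siSRF against siIGF2BP1. LPXN per PXN was 2.04 ± 0.110 in siC, 1.91 ± 0.128 in siIGF2BP1 and 2.94 ± 0.287 in siSRF (SD, n = 3 each).

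The remaining families rested on a single gene or were mixed. TLN1 gave 94.5% of the talin sum in siC and BCAR1 98.7% of the Cas family sum. In the zyxin family, ZYX gave 31.1% of the sum in siC, TRIP6 29.7% and AJUBA 21.0%. AJUBA, which encodes a LIM protein of adhesions and cell junctions, was at 25.3, 25.7 and 26.6 FPKM under siC, 47.3, 47.2 and 50.7 under siIGF2BP1, and 54.5, 54.8 and 55.3 under siSRF. It rose in siIGF2BP1 (log2 fold change 0.90, limma adjusted p = 0.000242, SE 0.0472) and in siSRF (1.08, limma adjusted p = 6.1e-05, SE 0.0372), and in both it was more abundant than ZYX. FBLIM1, which encodes the filamin-binding protein migfilin, fell in siSRF from 6.17 FPKM to 3.46 FPKM on average (log2 fold change -0.82, limma adjusted p = 0.00225, SE 0.0955).

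**Figure D4:**
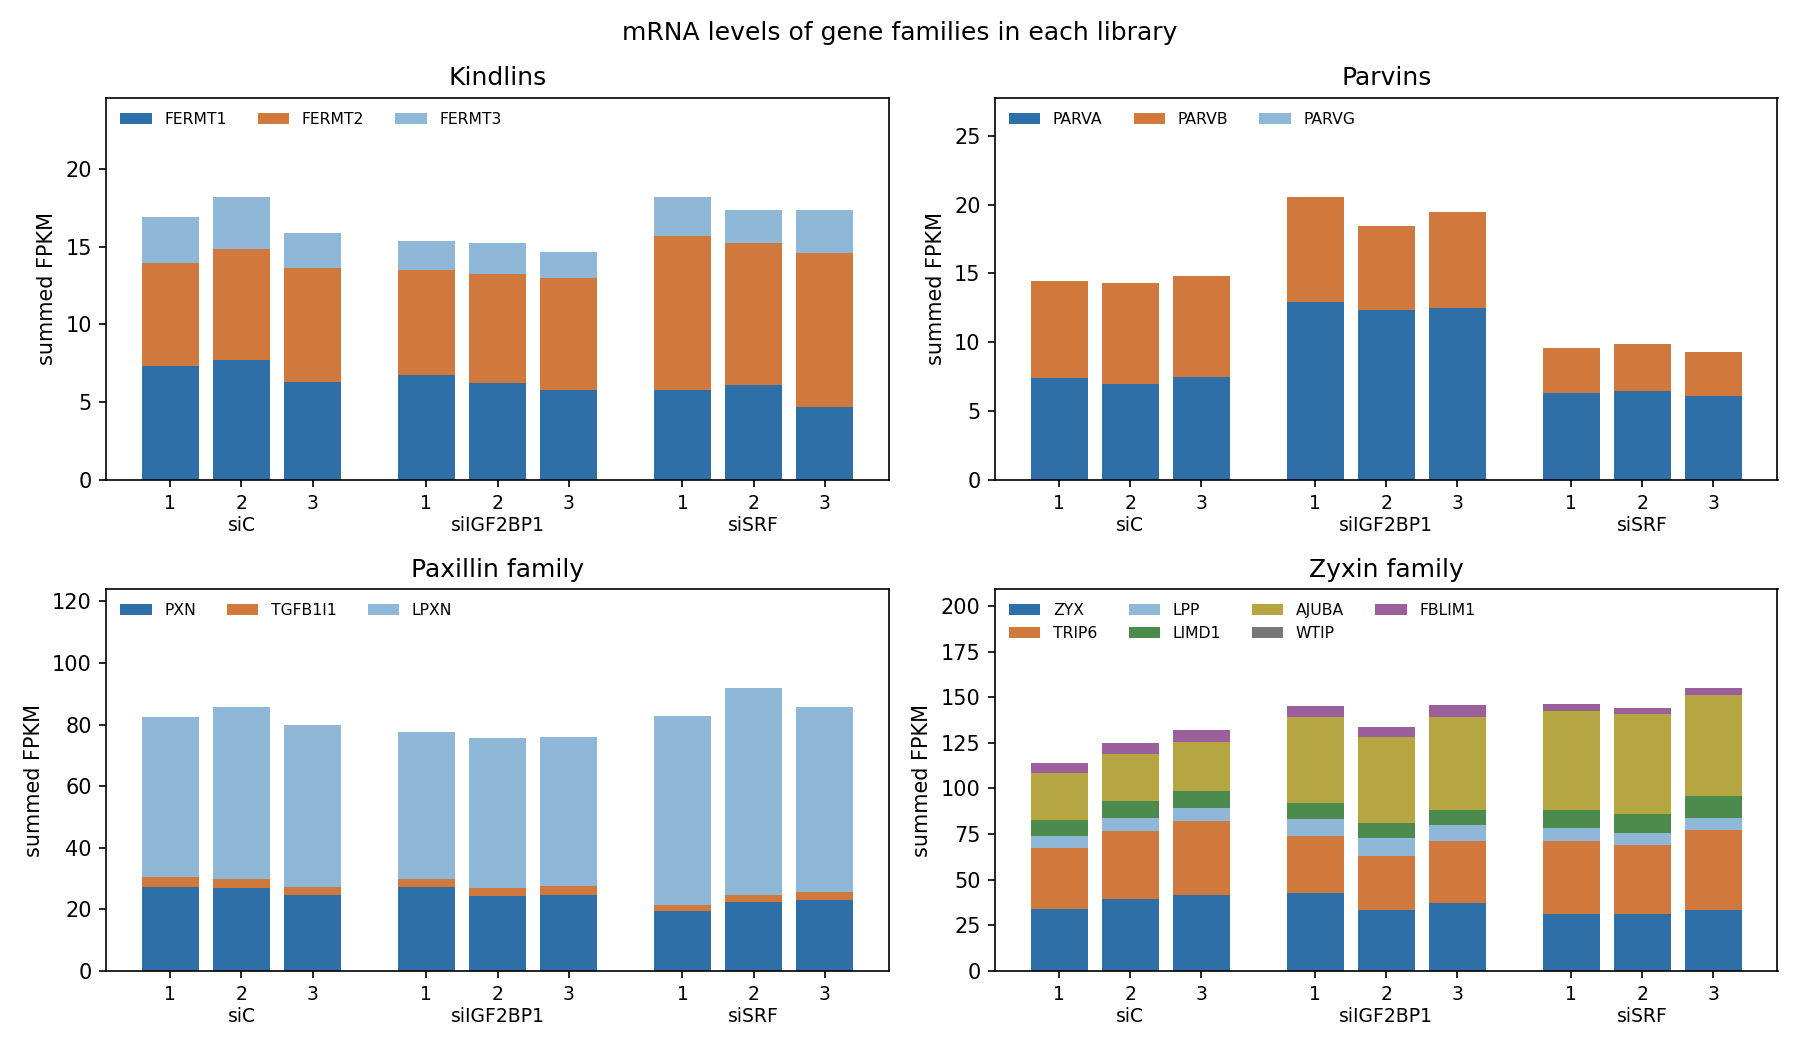
Summed FPKM of the kindlins, the parvins, the paxillin family and the zyxin family in each of the 9 libraries, with replicates 1 to 3 of each condition on the horizontal axis and genes as stacked parts; every axis starts at 0. The parvin sum is highest in siIGF2BP1 (mean of 19.5 FPKM) and lowest in siSRF (9.56 FPKM), and AJUBA takes a larger part of the zyxin family in both knockdowns than in siC.

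Other genes of the adhesion were grouped into 5 lists with 97 genes in all, of which 83 passed the filter in each comparison. The genes differed, since the integrin gene ITGB6 passed only in siIGF2BP1 against siC and ITGA7 only in the comparisons with siSRF. In siIGF2BP1 5 of the 83 were called lower and 13 higher (21.7%, beside 13.6% of the protein-coding genes of at least 1 FPKM). In siSRF 15 were lower and 7 higher, and these 26.5% were near the 23.5% of the protein-coding genes. Both counts fell with any 1 library left out, as did the counts over all genes. Without siC replicate 1, for instance, 11 of the 83 were called in siIGF2BP1. Of the integrin subunits, the receptors of the adhesion, 7 of 14 were higher and 1 was lower in siIGF2BP1 (57.1%, beside 13.6%), with a median log2 fold change of 0.45. Enrichment of a list was not tested. In siSRF 1 of 14 was higher and 3 were lower (28.6%, beside 23.5%), with a median of -0.16. The share in siSRF depended on the method, since limma-voom on the recovered reads called 12 of the 14 there. In siIGF2BP1 it called 11, and 11 had an unadjusted limma p under 0.05 in either comparison. Over all genes tested the medians were 0.017 in siIGF2BP1 and 0.007 in siSRF. Integrin beta-1 (ITGB1), the subunit of the list with the highest FPKM in siC, was at 81.1, 75.3 and 92.0 FPKM under siC, 229, 239 and 247 under siIGF2BP1, and 108, 105 and 105 under siSRF. It rose in siIGF2BP1 (log2 fold change 1.53, limma adjusted p = 0.000241, SE 0.0796).

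ITGAV and ITGB5, which encode the subunits of a vitronectin receptor, also rose in siIGF2BP1, from 7.40 to 20.5 FPKM and from 30.1 to 73.0 FPKM on average (limma adjusted p = 0.000132 and 0.000101). In siSRF they went in opposite directions, ITGAV to 11.8 FPKM (log2 fold change 0.66, limma adjusted p = 0.000826) and ITGB5 to 19.2 FPKM (-0.65, limma adjusted p = 0.000915). The laminin receptor subunit ITGA6 fell in siIGF2BP1 from 42.8 to 29.3 FPKM (log2 fold change -0.54, limma adjusted p = 0.00981). ITGA3 and ITGA5 fell in siSRF, to 54.3 and 8.40 FPKM from 66.6 and 11.0 FPKM (limma adjusted p = 0.00684 and 0.00994). In the direct comparison 10 of 14 subunits were lower and 2 were higher in siSRF than in siIGF2BP1 (85.7%, beside 37.4% of the protein-coding genes of at least 1 FPKM). Of the 10, ITGA11 passed the filter only through siIGF2BP1, with means of 0.0394 FPKM in siSRF and 2.14 FPKM in siIGF2BP1. ITGB3, also lower, averaged 0.194 FPKM in siSRF, and ITGA10, which was higher, averaged 0.316 FPKM in siIGF2BP1.

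The actin-linking proteins, which bind actin filaments at the adhesion, were called in either direction, with 4 of 18 lower and 3 higher in siIGF2BP1 (7 of 18, beside 13.6% of the protein-coding genes) and 6 lower and 3 higher in siSRF (9 of 18, beside 23.5%). Limma-voom called 12 of these 18 in siIGF2BP1 and 11 in siSRF. In siIGF2BP1 the alpha-actinins ACTN4 and ACTN1 fell, from 149 to 99.6 FPKM and from 33.0 to 23.9 FPKM (limma adjusted p = 0.000967 and 0.00203), while SVIL and ENAH rose with log2 fold changes of 0.87 and 0.66. In siSRF the filamin genes FLNA and FLNC went in opposite directions. FLNA fell from 128 to 75.2 FPKM, and FLNC rose from 93.0 to 154 FPKM (limma adjusted p = 0.000747 and 0.00076). LASP1 fell in siSRF from 73.8 to 39.9 FPKM (limma adjusted p = 0.000365), and ENAH rose to 10.1 from 6.22 FPKM. CSRP1, a LIM protein of the actin cytoskeleton, fell from 16.5 FPKM in siC to 8.35 FPKM in siIGF2BP1 and to 8.05 FPKM in siSRF (limma adjusted p = 0.000601 and 0.000329).

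The paralogs and partners of the members were called in 1 of 13 cases in siIGF2BP1, AJUBA (7.69%, beside 13.6% of the protein-coding genes), and in 4 of 13 in siSRF (30.8%, beside 23.5%). Limma-voom called 3 of these 13 in siIGF2BP1 and 6 in siSRF. Besides AJUBA, PARVB and FBLIM1, alpha-catenin (CTNNA1), a relative of vinculin, was called in siSRF, where it fell from 42.0 to 32.0 FPKM (limma adjusted p = 0.00301). Of 24 signalling genes tested, YES1 and NCK2 rose in siIGF2BP1 (8.33%, beside 13.6%), and in siSRF YES1 and CRK rose and the phosphatase gene PTPRA fell (12.5%, beside 23.5%). These shares depended on the method. Limma-voom on the recovered reads called 13 of these 24 in siIGF2BP1, beside 3805 of all 22292 genes, and 8 in siSRF. An unadjusted limma p under 0.05 was found for 14 of them in siIGF2BP1 and 12 in siSRF. YES1, a kinase of the Src family, went from 32.6 FPKM to 46.7 FPKM and 58.2 FPKM (limma adjusted p = 0.00391 and 0.000557). Of the 14 genes of inhibition and turnover tested, KANK2 and CLASP1 fell in siSRF (14.3%, beside 23.5%), from 25.0 to 18.1 FPKM and from 8.16 to 6.33 FPKM. In siIGF2BP1 limma-trend and limma-voom each called 0 of these 14, and 2 had an unadjusted limma p under 0.05. In siSRF limma-voom called 5 of them, and 8 had an unadjusted limma p under 0.05.

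**Figure D5:**
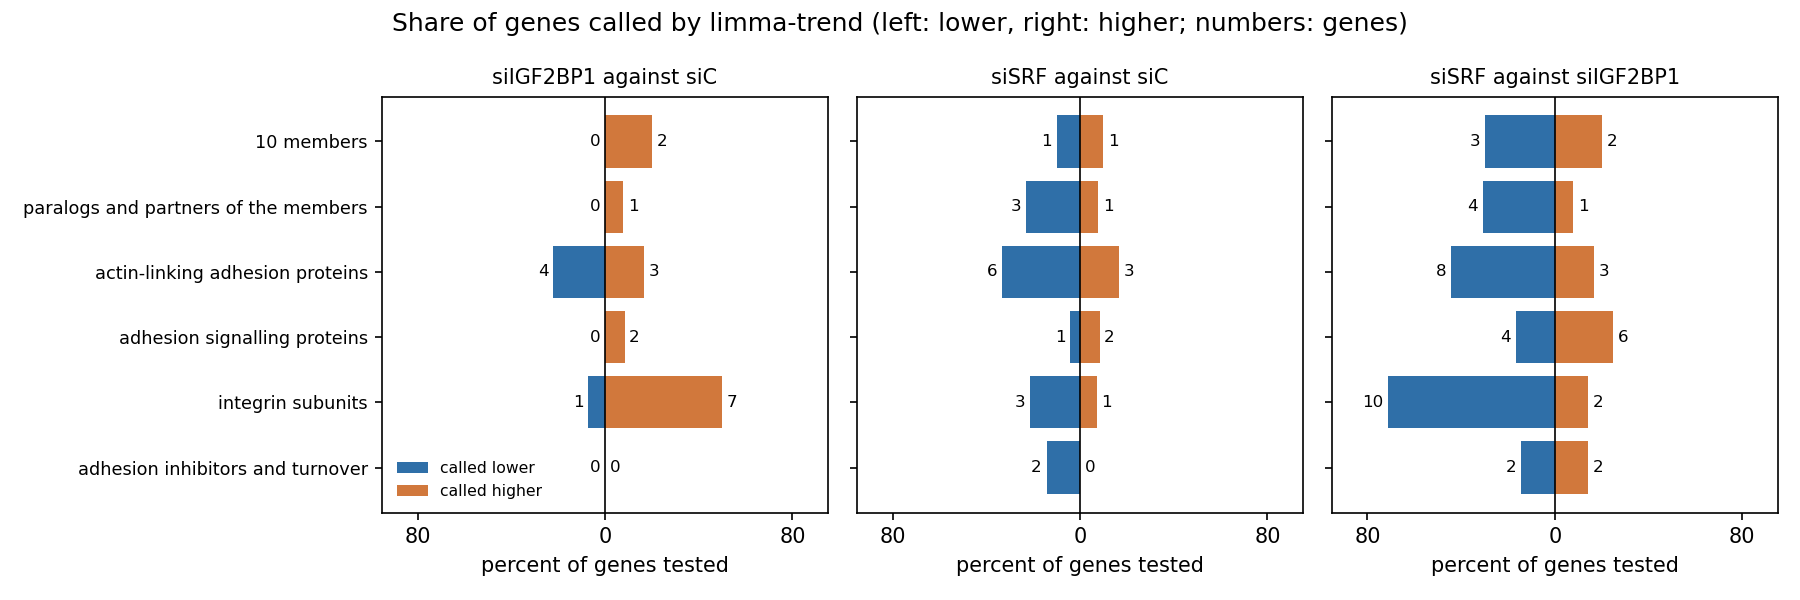
Percent of the genes tested in each list that limma-trend called lower (left) or higher (right), with the number of genes beside each bar, for the 3 comparisons. Integrin subunits show 7 higher in siIGF2BP1 against siC and 10 lower in siSRF against siIGF2BP1.

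Of the members, VCL, PARVA and LIMS1 had the largest range of group means. The protein-coding genes of at least 1 FPKM whose values were most like theirs over the 9 libraries were taken from 10379 candidates by Pearson correlation, which here mostly reflects the differences between the 3 conditions. VCL was most alike to ANXA11, AKR1C3 and TPM4 (r of 0.997, 0.996 and 0.996), and TPM4, which encodes a tropomyosin of actin filaments, was at 59.3, 60.0 and 37.2 FPKM on average in siC, siIGF2BP1 and siSRF. PARVA was most alike to TMEM64, PDGFB and FSTL1 (r of 0.996, 0.996 and 0.995). PDGFB, a growth factor gene, was at 3.02, 7.29 and 2.20 FPKM in the same order. For LIMS1 the genes were GALNT1, VHL and WDFY1 (r of 0.989, 0.985 and 0.984), and GALNT1 was at 10.5, 25.5 and 15.5 FPKM.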

How the data were processed

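The authors trimmed reads with cutadapt 1.14, aligned them to hg38 with HISAT2 2.1.0 and SAMtools 1.5, counted them per gene with featureCounts 1.5.3, and deposited FPKM values with the gene length (other) for each of 9 libraries. The deposited tables also hold the authors' fold changes, p-values and FDR from their own comparisons (edgeR 3.18.1), which were not used. The siC values were identical in the tables of both knockdowns. Whole reads were recovered from the FPKM values and gave the depth of each library.

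Each comparison was fitted by limma-trend (limma 3.58.1, R 4.3.3) on log2(FPKM + 0.1), with adjustment after Benjamini and Hochberg over all genes kept. Alternatives changed the pseudocount, filter, scaling, model, threshold and libraries, and a correction for GC content and length was added after the data had been seen. Exact permutation tests were two-sided. From each wider list, up to 3 genes with the smallest p per direction and comparison with siC were named, among those called, at 1 FPKM or more on average and without overlap of libraries. Some genes under this rule are not reported here. The members and lists were chosen with earlier results of these data known.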

Additional observations from a re-analysis of the deposited data

How the results depend on the processing

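Of 162 alternative results for the 9 called differences of single members, 129 stayed called and 33 were lost; of 378 for the 21 others, 13 became called. None reversed with a call; the cause was not tested. The planned fits called 2, 2 and 5 members, 18, 22 and 42 wider adhesion genes and 1588, 2665 and 4460 genes in siIGF2BP1 against siC, siSRF against siC and siSRF against siIGF2BP1. In siIGF2BP1 against siC, limma-voom called 39 wider genes and 3805 genes, the fit of all 9 libraries 28 and 2481, and an adjusted p of at most 0.05 31 and 3596. In siSRF against siC, limma-voom called 5 members, 42 wider genes and 5123 genes, and the threshold of 0.05 4, 37 and 5205. Between the knockdowns limma-voom called 8 members and 6912 genes, and the threshold of 0.05 7132 genes. With the replicate block, the counts were 0 members, 4 wider genes and 91 genes in siIGF2BP1 against siC, 1, 8 and 501 in siSRF against siC, and 2, 23 and 2075 between the knockdowns. The labels do not say whether equal replicate numbers pair libraries, and deviations of equal numbers correlated at -0.0438 to 0.0186. Without 1 library each, members called ranged from 1 to 2, 1 to 1 and 2 to 4, wider genes from 9 to 12, 10 to 18 and 31 to 35, and genes from 436 to 738, 946 to 1796 and 2885 to 3358. The groups hold 3 libraries each of a single cell line, only RNA was measured, and both knockdowns share siC.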
